A study of Rattus norvegicus with 30 samples.

Results

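Complement and coagulation factors are the secreted proteases, cofactors and inhibitors of plasma that the liver makes for the defence against microbes and for clotting. They were followed here as a list of 37 genes in rat liver, matched to the array by the platform's gene symbols. Each gene was read from the probe set that named it alone and had the highest mean over the 30 arrays. In this way 31 of the 37 genes could be read, of 14217 genes that had a probe set of their own. C2, Cfb and Kng1 appear only on probe sets that list several genes, F7, F11 and F13b have no probe set in the annotation used here, and these 6 genes were not analysed.

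The livers came from Wistar/Han rats gavaged with 50 mg/kg of DE-71, a commercial flame retardant made up of several polybrominated diphenyl ethers (PBDE), in corn oil, or with 0 mg/kg as controls. The 6 groups of 5 livers were male PBDE pups, male control pups, female PBDE pups and female control pups, all taken on postnatal day 22, then adult male PBDE rats and adult male control rats, taken at week 13. Dams were gavaged from gestation day 6 to postnatal day 21, pups were also gavaged themselves up to postnatal day 21, and dosing went on after weaning on 5 days a week in the animals kept to week 13. Each pup had a different dam, and each adult a different dam within its dose group. Values are log2 intensities normalised by RMA, a method that summarises the probes of a set into 1 value.

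Complement works as a cascade: recognition molecules switch on proteases, these split C3 and C5, and the terminal components assemble into a pore called the membrane attack complex. Coagulation is a parallel cascade of proteases that ends in thrombin and fibrin, and several of its members need a vitamin K-dependent modification in the hepatocyte before they can bind membranes. Both cascades are held back by inhibitors from the liver, among them C1 inhibitor, C4b-binding protein, antithrombin, heparin cofactor II and the protein C and protein S pair.

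The promoters of 3 genes are shown, since Pros1 rose in PBDE pups of both sexes while C4bpa and C4bpb, whose products form 1 complex, fell in female PBDE pups. They are the 250 bases before 1 annotated start of each gene from RefSeq on the rat build GRCr8, read along the strand of the gene. The Pros1 window lies at chr11:13677049-13677298 on the plus strand. The C4bpa window lies at chr13:44663472-44663721 and the C4bpb window at chr13:44683782-44684031, both on the minus strand. The Pros1 window falls inside the span of its gene record, 13676310 to 13757858. The C4bpa window reaches into its record, which ends at 44663552, while the C4bpb window lies wholly before its record. The Pros1 and C4bpa windows are thus not wholly upstream of these genes. Capitals mark matches, on either strand, to TTGCNNAA (the letters bound by C/EBP factors), GTTAAT (core letters of HNF1 sites) or GCGTG (the core letters bound by the Ah receptor).
Pros1: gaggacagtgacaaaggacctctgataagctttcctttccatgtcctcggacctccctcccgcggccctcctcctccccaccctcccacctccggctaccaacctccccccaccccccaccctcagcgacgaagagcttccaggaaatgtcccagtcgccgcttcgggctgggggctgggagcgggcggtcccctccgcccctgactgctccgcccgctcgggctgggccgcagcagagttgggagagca
C4bpa: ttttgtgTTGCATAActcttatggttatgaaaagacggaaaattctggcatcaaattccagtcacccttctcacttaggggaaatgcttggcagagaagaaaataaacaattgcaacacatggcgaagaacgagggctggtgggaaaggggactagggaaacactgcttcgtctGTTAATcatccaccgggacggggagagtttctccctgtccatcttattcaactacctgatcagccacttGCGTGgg
C4bpb: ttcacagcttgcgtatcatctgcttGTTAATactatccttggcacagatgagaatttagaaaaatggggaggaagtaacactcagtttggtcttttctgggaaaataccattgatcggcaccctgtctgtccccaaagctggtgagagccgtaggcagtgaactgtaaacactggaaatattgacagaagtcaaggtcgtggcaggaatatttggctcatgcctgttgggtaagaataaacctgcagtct
Of the 31 genes read, 25 had such a window. GTTAAT was found in 7 of the 25 (28%) and in 6.46% of 27457 promoters of the same length, and TTGCNNAA in 9 (36%) and in 9.2%. GCGTG was found in 4 (16%) and in 27.2% of all promoters. The letters CAAAGTCCA, searched for HNF4, and TATAAA were in none of the 25 windows and in 0.331% and 13.1% of all promoters. No match to any of the 5 motifs was found in the Pros1 window, which says only that these letters are absent from it. The motifs do not overlap in the windows printed, and a match describes letters, not binding.

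The members were abundant transcripts. The mean over 30 arrays ran from 7.44 for Cfd, the protease that activates factor B, to 14.68 for C3, and every array median lay between 5.72 and 5.77. The defining hepatocyte marker Alb had group means between 15.43 and 15.44, and the summed hepatocyte markers ran from 17.79 to 17.90 (log2 of the sum). Cfd is known as an adipocyte product, and 5 of 6 adipose markers were read. The group means of Adipoq, Lep and Plin1 lay between 4.37 and 5.47, under every array median, while Fabp4 lay between 5.64 and 7.41 and Cidec between 9.56 and 10.16. C3 and Plg, the precursor of plasmin, had means above 14, near the top of the scale, where an array compresses differences. Alb lay closer to that top, as the highest value on any array was 15.46. Its even means, and the hepatocyte sum that includes it, are limited in the same way.

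Members differed in how tightly they were held within a group. The SD pooled over the 6 groups was 0.058 log2 for Serpinc1 (antithrombin), 0.064 for F2 (prothrombin) and 0.168 for the median member. It was 0.475 for C6 and 0.587 for C8b, both parts of the membrane attack complex. C8b, the beta chain of C8, fell on both sides of a gap that ran through 4 of the 6 groups: 6 arrays lay between 10.71 and 11.09, and the other 24 lay between 11.79 and 12.70. The low arrays were 1 of 5 male PBDE pups, 0 of 5 male control pups, 3 of 5 female PBDE pups, 1 of 5 female control pups, 0 of 5 adult PBDE rats and 1 of 5 adult control rats. C8b was singled out after its values were seen, and its partner C8a had a pooled SD of 0.169.

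Some arrays stood apart for these genes before any comparison. Replicate 4 of the female control pups lay above its group mean in 27 of 31 members, by 0.356 log2 on average, with C6 at 10.69 against 9.15 to 9.43 in the other 4 arrays. In that array A2m, an acute phase protein of the rat, was at 13.94 against 10.63 to 11.29 in the other 4. The summed neutrophil markers of that array (3 of 6 read) were at 10.50, against a group median of 7.39. Such a sum leans on its most abundant marker, and the 3 markers are not given singly. Replicate 4 of the male control pups lay below its group mean in 28 members, by 0.199, and replicate 1 of the male PBDE pups in 26 members, by 0.163.

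**Figure D1:**
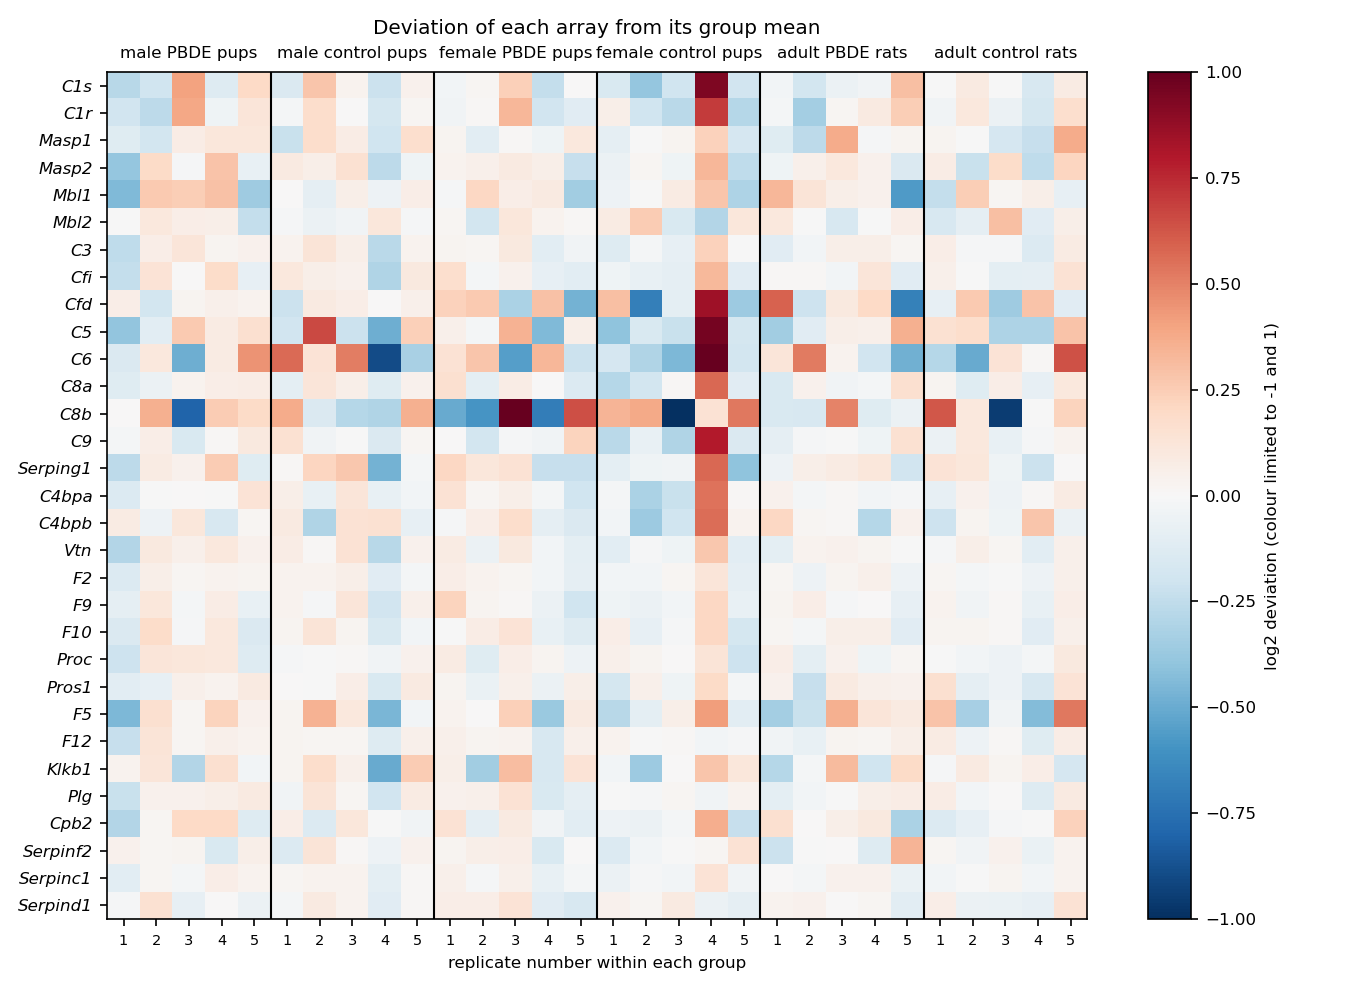
Log2 deviation of each array (columns, by group and replicate number) from the mean of its own group, for the 31 members (rows, ordered by role); red is higher and blue lower, and colours stop at 1 and -1. Replicate 4 of the female control pups is red in 27 of 31 rows, and the C8b row holds isolated dark cells in several groups.

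Within groups the members tended to move together from liver to liver. The mean correlation between 2 members, after subtracting group means, was 0.346 over the 30 arrays, where all 14217 genes had 0.0137, and 397 of 465 pairs were positive. Without replicate 4 of the female control pups it was 0.255. The points share arrays, and no test was made. C1r and C1s, the protease pair of the first complement complex, had the value 0.92, and C8b and C8a had -0.12. The mean was 0.258 in male PBDE and 0.398 in male control pups, 0.318 in female PBDE and 0.397 in female control pups, and 0.0423 in adult PBDE and 0.276 in adult control rats.

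The first question was which of these genes differed with PBDE in pups. In male pups 1 of 31 members passed a false discovery rate of 0.01 in a limma fit over all arrays, where 7.48% of all genes did (4.23% higher and 3.26% lower). In female pups 5 passed, 1 higher and 4 lower, where 6.13% of all genes did (3.95% higher and 2.18% lower). In adults 0 of 31 passed at a false discovery rate of 0.05, where 3.9% of all genes did (1.86% higher and 2.04% lower), and 2 members had an unadjusted limma p under 0.05. The unadjusted counts were 12 in male pups and 17 in female pups. The share of all genes at that unadjusted cut was not computed, so these counts have nothing to be set against. The median change over the members was -0.04 in male pups, -0.18 in female pups and -0.05 in adults, and over all genes it was 0.02, 0.02 and 0.01. The male pup median has no settled sign: it was 0.015, with 17 of 31 members positive, without replicate 1 of the male PBDE pups, and -0.10, with 8 positive, without replicate 4 of the male control pups, where all arrays gave 13 positive. In female pups 6 members were positive, and without replicate 4 of the female control pups 9 were, with a median of -0.15. Over all genes 54.8% were positive in male pups and 54.4% in female pups. Members moved together within groups, so these signs are not independent of each other.

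**Figure D2:**
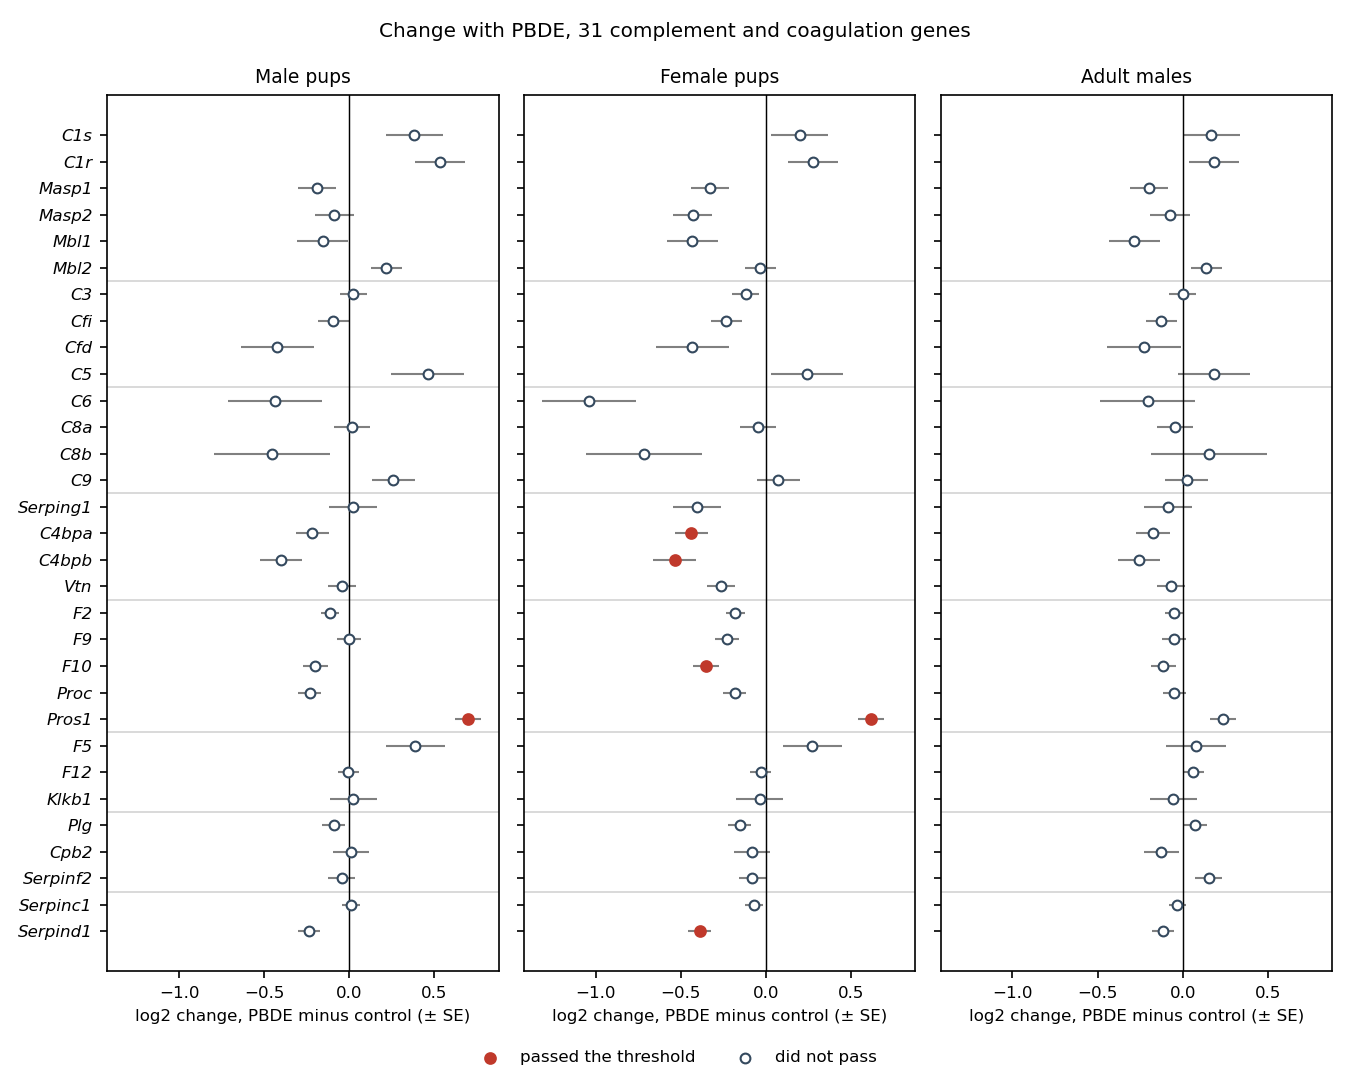
Log2 change, PBDE minus control, with its standard error for the 31 members (rows, grouped by role) in male pups, female pups and adult males; filled points passed the threshold. Pros1 stands to the right in both pup panels, and in female pups 25 of 31 points lie left of 0, where 54.4% of all genes were positive.

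Pros1 encodes protein S, the vitamin K-dependent cofactor of activated protein C, and it was the member that passed in both sexes of pups. In male pups it read 11.62, 11.65, 11.78, 11.77 and 11.82 in PBDE livers, against 11.04, 11.03, 11.10, 10.88 and 11.13 in control livers. In female pups it read 11.67, 11.58, 11.69, 11.59 and 11.71 in PBDE livers, against 10.85, 11.08, 10.99, 11.22 and 11.01 in control livers. Every PBDE pup was above every control pup of its sex. Pros1 rose by 0.70 log2 in male pups (SE 0.08, 1.62-fold, limma adjusted p = 2.23e-07) and by 0.62 in female pups (SE 0.08, 1.53-fold, limma adjusted p = 2.06e-06). In adults it read 11.75, 11.48, 11.80, 11.76 and 11.76 in PBDE livers, against 11.63, 11.39, 11.43, 11.31 and 11.61 in control livers, so that the groups overlapped. The adult difference was 0.24 (SE 0.08, limma adjusted p = 0.0846). Leaving out replicate 2 of the adult PBDE rats, the lowest of its group, gave 0.0232.

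**Figure D3:**
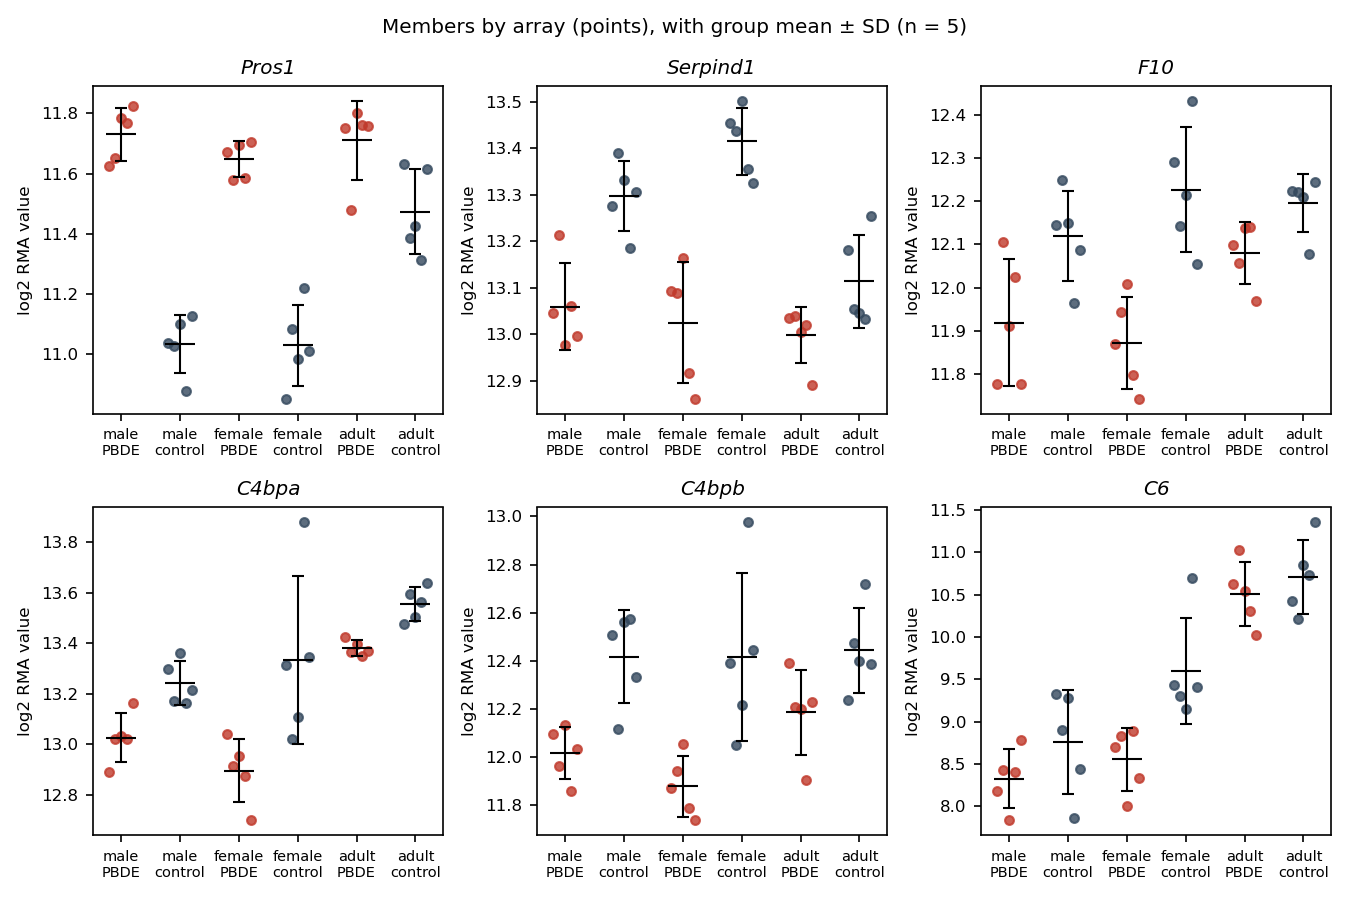
Log2 RMA value of Pros1, Serpind1, F10, C4bpa, C4bpb and C6 on every array (points, red for PBDE and dark for control, n = 5 per group), with the group mean and SD in black; each panel has its own scale. For Pros1 all PBDE pups lie above all control pups of the same sex, while the adult groups overlap.

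Of the other vitamin K-dependent members, F10 fell in female pups. Factor X forms the enzyme that turns prothrombin into thrombin. It read 11.87, 11.95, 12.01, 11.80 and 11.74 in female PBDE pups, against 12.29, 12.14, 12.21, 12.43 and 12.05 in female control pups, and these did not overlap. The fall was 0.35 log2 (change -0.35, SE 0.08, limma adjusted p = 0.00225). The call was lost without replicate 4 of the female control pups (-0.30, limma adjusted p = 0.0112) and without replicate 5 of the female PBDE pups (-0.32, limma adjusted p = 0.0114). In male pups F10 averaged 11.92 ± 0.15 in PBDE and 12.12 ± 0.10 in control livers (SD, n = 5 each; limma adjusted p = 0.0889), and in adults 12.08 ± 0.07 in PBDE and 12.20 ± 0.07 in control livers (limma adjusted p = 0.482). Proc, the precursor of activated protein C whose cofactor is protein S, averaged 12.53 ± 0.16 in male PBDE and 12.76 ± 0.03 in male control pups (limma adjusted p = 0.0244), with no overlap between the groups. In female pups it averaged 12.47 ± 0.09 in PBDE and 12.65 ± 0.12 in control livers (limma adjusted p = 0.0971). F2 and F9, prothrombin and factor IX, differed by -0.18 and -0.23 in female pups and by -0.11 and -0.00 in male pups, and none of these values passed.

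Serpind1 encodes heparin cofactor II, an inhibitor of thrombin, and it fell in female pups. It read 13.09, 13.09, 13.16, 12.92 and 12.86 in female PBDE pups, against 13.45, 13.44, 13.50, 13.36 and 13.33 in female control pups. The groups did not overlap, and the change was -0.39 (SE 0.07, limma adjusted p = 1.81e-04). In male pups it read 13.05, 13.21, 12.98, 13.06 and 13.00 in PBDE livers, against 13.27, 13.39, 13.33, 13.19 and 13.31 in control livers. Here 1 PBDE value lay above the lowest control value, and the change of -0.24 missed the threshold (SE 0.07, limma adjusted p = 0.0159). Adults averaged 13.00 ± 0.06 in PBDE and 13.11 ± 0.10 in control livers (SD, n = 5 each; limma adjusted p = 0.397). Serpinc1, the other serpin that blocks thrombin, differed by 0.01 in male pups, -0.07 in female pups and -0.03 in adults.

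Of the 4 complement inhibitors, C4bpa and C4bpb fell in female pups. They encode the alpha and beta chains of C4b-binding protein, which helps factor I to break down C4b; in human plasma the beta chain also carries protein S. C4bpa read 13.04, 12.91, 12.95, 12.88 and 12.70 in female PBDE pups, against 13.32, 13.02, 13.11, 13.88 and 13.35 in female control pups. C4bpb read 11.87, 11.94, 12.05, 11.79 and 11.74 in female PBDE pups, against 12.39, 12.05, 12.21, 12.98 and 12.45 in female control pups. In both genes the highest PBDE values reach the lowest control value, and the highest control value is replicate 4. The changes were -0.44 for C4bpa (SE 0.10, limma adjusted p = 0.00424) and -0.54 for C4bpb (SE 0.12, limma adjusted p = 0.00503). Without replicate 4 of the female control pups they were -0.30 (limma adjusted p = 0.00959) and -0.40 (limma adjusted p = 0.0206). The call on C4bpa was lost without replicate 4 or 5 of the female PBDE pups (limma adjusted p = 0.0105 and 0.0207), and that on C4bpb without any 1 of replicates 1, 4 and 5 of either female group (limma adjusted p between 0.0103 and 0.0206).

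In the other groups both chains were lower on average in PBDE livers, without passing. C4bpa averaged 13.03 ± 0.10 in male PBDE and 13.24 ± 0.09 in male control pups, with no overlap (limma adjusted p = 0.177), and 13.38 ± 0.03 in adult PBDE and 13.56 ± 0.07 in adult control rats, again with no overlap (limma adjusted p = 0.401). C4bpb averaged 12.02 ± 0.11 in male PBDE and 12.42 ± 0.19 in male control pups (limma adjusted p = 0.034). Serping1, the C1 inhibitor, differed by -0.41 in female pups, or -0.26 without replicate 4 of the controls, and by 0.02 in male pups. Vtn, vitronectin, which binds the forming pore, differed by -0.26 in female pups and -0.04 in male pups, and neither gene passed.

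Among the recognition and initiating members no gene of 6 read passed in any dose comparison. C1r, a protease of the first complex, had the largest difference of these 6 in male pups, with 12.32, 12.25, 12.90, 12.47 and 12.63 in PBDE livers against 11.80 at the lowest, 11.98 at the median and 12.15 at the highest in control livers. All 5 PBDE values lay above the controls, and the difference was 0.53 (SE 0.15, limma adjusted p = 0.0167). C1s differed by 0.38 in male pups, and in female pups C1r and C1s differed by 0.27 and 0.20. Without replicate 4 of the female control pups the female differences were 0.45 for C1r (limma adjusted p = 0.0231) and 0.43 for C1s (limma adjusted p = 0.0269). Masp2, a protease of the lectin pathway, differed by -0.43 in female pups (limma adjusted p = 0.017), without overlap, and by -0.09 in male pups. Its second most abundant probe set gave 0.09 in female pups and the third gave -0.48, neither past the threshold. In male pups these probe sets gave 0.25 and -0.83 (limma adjusted p = 0.0107 for the third), so the value of Masp2 depends on the probe set. The third had a mean of 6.72 over all arrays, not far above the array medians, against 11.02 for the chosen one. Of the mannose-binding lectins, Mbl1 differed by -0.43 and Mbl2 by -0.03 in female pups.

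In the central and terminal steps no member passed with dose. C6 had the largest difference of the list, with 8.70, 8.84, 8.01, 8.89 and 8.34 in female PBDE pups, against 9.43, 9.30, 9.15, 10.69 and 9.41 in female control pups. The groups did not overlap, and the change was -1.04 (SE 0.28, limma adjusted p = 0.0156). Without replicate 4 of the female control pups it was -0.77 (limma adjusted p = 0.0697). C3 differed by 0.02 in male pups, -0.12 in female pups and -0.00 in adults. C5, from which the pore is started, differed by 0.46, 0.24 and 0.18, and without replicate 4 of the female control pups the female value was 0.48 (limma adjusted p = 0.133). Cfd had no overlap in male pups, where it averaged 7.03 ± 0.11 in PBDE and 7.45 ± 0.13 in control livers (SD, n = 5 each; limma adjusted p = 0.238). The remaining coagulation and fibrinolysis members (F5, F12, Klkb1, Plg, Cpb2 and Serpinf2) ranged between -0.16 and 0.39 over the 3 dose comparisons, and none passed.

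Counted without a test, 5 members in male pups had groups that did not overlap (C1r, Cfd, C4bpa, Proc and Pros1), where 11.9% of all genes had this. In female pups 8 members did (Masp1, Masp2, C6, Vtn, F2, F10, Pros1 and Serpind1), where 10.9% of all genes did. In adults C4bpa was the 1 member, where 4.59% of all genes had it.

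Several measured facts moved with these comparisons, and their part in the results was not tested. The female PBDE arrays carry another array-name prefix than the female controls; what the prefix marks is not stated, and it is called an array batch here. On that reading array batch and dose cannot be told apart there, while both groups of male pups lie in 1 batch and both adult groups in the other. The difference between the 3' and 5' probe sets of Gapdh, a sign of RNA integrity, was 1.93 ± 0.303 in female PBDE and 1.26 ± 0.505 in female control pups (SD, n = 5 each; exact permutation p = 0.0397). It was 2.09 ± 0.65 for male PBDE and 1.61 ± 0.33 for male control pups (p = 0.198 by the same exact test), and 1.17 ± 0.62 in adult PBDE and 0.62 ± 0.18 in adult control rats (p = 0.0238 by the exact test). The lowest value after adjustment over 6 such tests was 0.0794. With the Gapdh difference as a covariate, Pros1 and Serpind1 passed in female pups, at 0.64 and -0.32, while C4bpa, C4bpb and F10 did not. The female count was 3 without replicate 4 of either female group and 2 without replicate 5 of the female PBDE pups.

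Marker sums of other cell types were set beside these comparisons. The summed markers of Kupffer cells and macrophages (10 of 13 read) lay between 12.35 and 12.67 in male PBDE and between 12.74 and 13.10 in male control pups, and between 12.52 and 12.93 in female PBDE and 12.51 and 13.60 in female control pups, where they overlapped. In adults they lay between 12.17 and 12.92 in PBDE and 12.69 and 13.32 in control rats, and overlapped. The endothelial markers (8 of 11 read) lay between 11.94 and 12.29 in male PBDE and 12.57 and 12.87 in male control pups, and between 12.09 and 12.46 in female PBDE and 12.56 and 12.80 in female control pups. In adults they lay between 12.01 and 12.48 in PBDE and 12.20 and 12.47 in control rats, and overlapped. The sum of the cholangiocyte markers (4 of 5 read) was higher without overlap in all 3 comparisons. It lay between 9.92 and 10.54 in male PBDE and 9.03 and 9.60 in male control pups. In female pups it lay between 9.60 and 10.23 in PBDE and 9.11 and 9.55 in control livers. In adults it lay between 9.54 and 10.12 in PBDE and 8.58 and 9.13 in control rats. Epcam was the 1 marker of these that passed, in each comparison. Of the 4 markers, 2 were higher and 2 lower in male pups and in adults, and 1 was higher and 3 lower in female pups. The mean of their log2 values overlapped between PBDE and control livers in all 3 comparisons. The hepatocyte markers (9 of 10 read) lay between 17.80 and 17.83 in female PBDE and between 17.88 and 17.89 in female control pups. They overlapped in male pups, at 17.79 to 17.86 in PBDE and 17.84 to 17.90 in control livers, and in adults, at 17.81 to 17.87 in PBDE and 17.86 to 17.90 in control livers. In whole liver, fewer cells of a type and less RNA per cell cannot be told apart.

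The next question was whether male and female pups differed. No member passed between male and female control pups, where 0.0422% of all genes did, nor between male and female PBDE pups, where 0.0563% did; limma gave 2 and 1 members with an unadjusted p under 0.05. No member passed for the difference of the dose effects between the sexes, where 0% of all genes did, and 3 had an unadjusted limma p under 0.05. Shares of all genes at the unadjusted cut were not computed for these comparisons either. In that difference, male effect minus female effect, 30 of 31 members were positive, with a median of 0.14 log2, where 48.7% of all genes were positive. Without replicate 4 of the female control pups 23 were positive, with a median of 0.06. Without replicate 1 of the male PBDE pups 30 were, and without replicate 4 of the male control pups 28 were. The PBDE pups of the 2 sexes lie in different array batches, so the comparison within PBDE cannot be told apart from batch, and the female effect spans both batches.

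For Pros1 the dose effect differed between adult males and male pups. The adult effect minus the male pup effect was -0.46 log2 (SE 0.11, limma adjusted p = 0.0204), and it was the 1 member of 31 that passed at a false discovery rate of 0.05, where 2.48% of all genes did (1.35% with a lower effect in adults). Each of the 2 effects lies within 1 array batch. The adults had also been dosed for longer than the pups, so age and length of dosing cannot be told apart here. Among controls Pros1 averaged 11.47 ± 0.14 in adult rats and 11.03 ± 0.10 in male pups, and among PBDE animals 11.71 ± 0.13 in adult rats and 11.73 ± 0.09 in male pups (SD, n = 5 each). The adult minus pup difference was thus 0.44 in controls (limma adjusted p = 6.33e-05) and -0.02 in PBDE animals (limma adjusted p = 0.904). The call was lost without the 2 arrays least like their own groups, a setting added after the data were seen (limma adjusted p = 0.0647). Those arrays were replicates 5 and 2 of the adult PBDE rats, and replicate 2 held the lowest Pros1 value of its group.

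The last question was which members differed with age. In controls 14 of 31 members passed between adult males and male pups, 11 higher and 3 lower, where 29.5% of all genes passed (10.9% higher and 18.6% lower). In PBDE animals 8 passed, 6 higher and 2 lower, where 18.8% of all genes passed (5.2% higher and 13.6% lower). The median member difference was 0.15 in controls and 0.17 in PBDE animals, and over all genes it was -0.02 and -0.03. Groups did not overlap for 16 members in controls and 7 in PBDE animals, where 21.1% and 13.4% of all genes had this. Adults and pups lie in different array batches, so age and batch cannot be told apart. In PBDE animals age cannot be told apart from the length of dosing either.

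C6, which joins C5b to start the pore, was the member with the largest difference in both sets. It read 10.42, 10.21, 10.85, 10.73 and 11.35 in adult control rats, against 9.33, 8.90, 9.28, 7.87 and 8.44 in male control pups. It read 10.63, 11.03, 10.54, 10.31 and 10.02 in adult PBDE rats, against 8.18, 8.43, 7.84, 8.41 and 8.78 in male PBDE pups. No adult overlapped a pup. C6 rose by 1.95 log2 in controls (SE 0.28, 3.86-fold, limma adjusted p = 4.55e-06) and by 2.18 in PBDE animals (SE 0.28, 4.53-fold, limma adjusted p = 1.53e-06). C9, which forms the wall of the pore, rose by 0.51 in controls, and in PBDE animals the difference was 0.27 without passing.

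Of the proteases and inhibitors of complement, C1r rose by 0.65 and C1s by 0.54 in adult controls, and in PBDE animals the differences were 0.30 and 0.32 without passing. Serping1, Cfi (factor I), Vtn and C4bpa rose in both sets, by 0.58, 0.37, 0.36 and 0.31 in controls and by 0.47, 0.34, 0.33 and 0.36 in PBDE animals. All 4 lost their call in both sets with the Gapdh difference as a covariate, which left 6 of 14 members in controls and 3 of 8 in PBDE animals. In controls the call on C1s was lost without replicate 4 of the male control pups (limma adjusted p = 0.0516) and that on C4bpa without replicate 5 of the adult control rats (limma adjusted p = 0.0501). In PBDE animals the call on Serping1 was lost without replicate 1 or 5 of the male PBDE pups or replicate 3 or 4 of the adult PBDE rats (limma adjusted p between 0.0512 and 0.0776). The Gapdh difference itself was 0.62 ± 0.18 in adult control rats and 1.61 ± 0.33 in male control pups, and 1.17 ± 0.62 in adult PBDE rats and 2.09 ± 0.65 in male PBDE pups (SD, n = 5 each).

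Serpinf2, the inhibitor of plasmin, went the other way. It read 12.37, 12.31, 12.39, 12.28 and 12.38 in adult control rats, against 12.80, 13.07, 12.95, 12.89 and 12.98 in male control pups, a fall of 0.59 (change -0.59, SE 0.08, limma adjusted p = 1.4e-06). In PBDE animals it read 12.29, 12.49, 12.50, 12.37 and 12.84 in adults, against 12.94, 12.91, 12.92, 12.74 and 12.95 in pups, a change of -0.39 (SE 0.08, limma adjusted p = 6.37e-04). The groups overlapped in PBDE animals alone, through 1 adult. Cpb2, which protects fibrin from plasmin, rose by 0.34 and F9 by 0.24 in controls. The call on F9 was lost without replicate 4 of the male control pups (limma adjusted p = 0.0629), and that on Cpb2 without replicate 2 of the male control pups (limma adjusted p = 0.0553) or replicate 5 of the adult control rats (limma adjusted p = 0.0689). Proc rose by 0.34 in PBDE animals (limma adjusted p = 7.17e-04), and in controls its difference of 0.16 did not pass. Serpind1 fell by 0.18 in controls (change -0.18, limma adjusted p = 0.0404), a call that was lost without any 1 of replicates 1, 2, 3 and 5 of the male control pups or 2, 3 and 4 of the adult control rats. Masp1 fell on its chosen probe set, by 0.32 in controls and 0.33 in PBDE animals (changes -0.32 and -0.33). Its other 2 probe sets gave 0.435 and 0.25 in controls, so its direction depends on the probe set. Those 2 had means of 6.03 and 6.68 over all arrays, not far above the array medians, against 10.17 for the chosen one. For Masp2 the chosen probe set differed by 0.08 in controls, and the second rose by 0.82 (limma adjusted p = 2.34e-05).

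**Figure D4:**
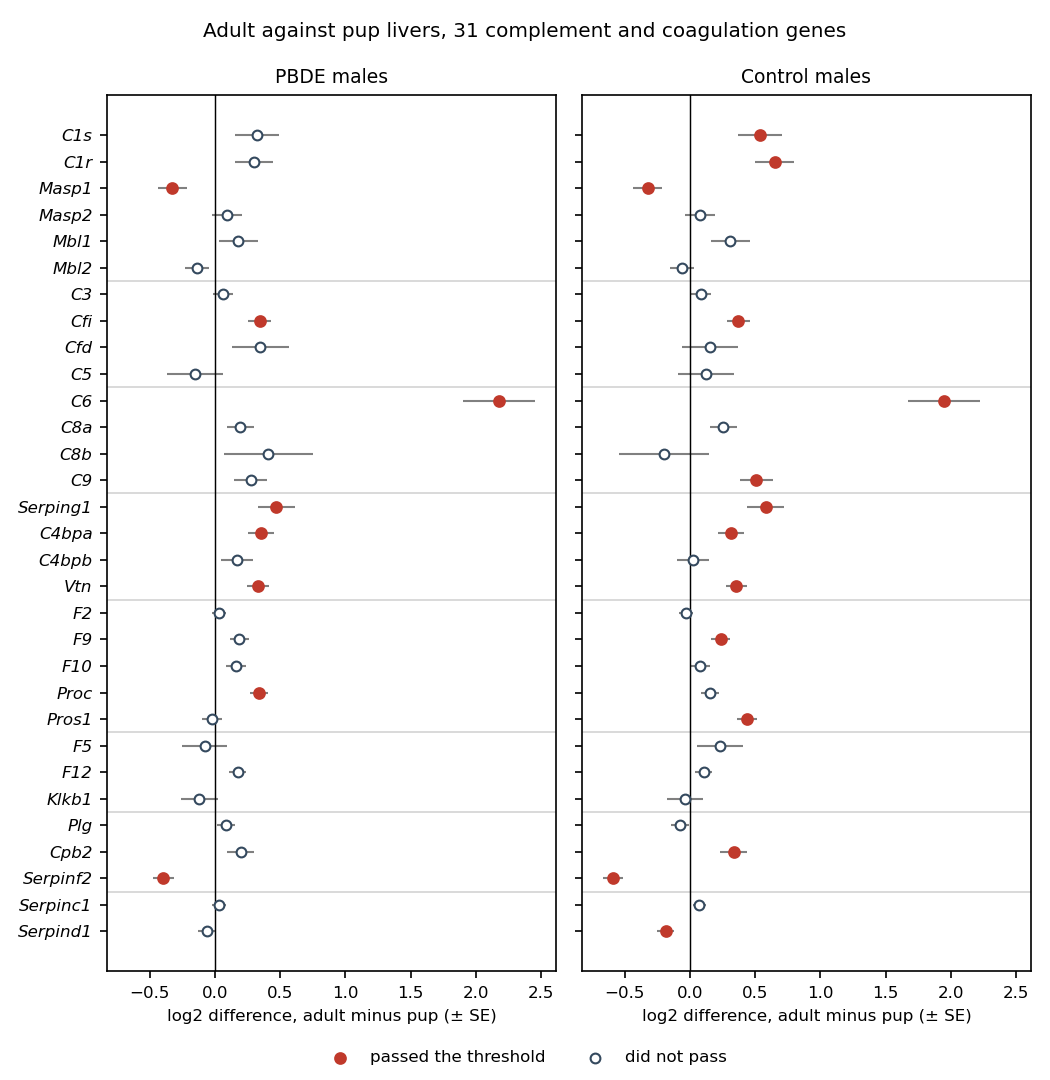
Log2 difference, adult minus pup, with its standard error for the 31 members (rows, grouped by role) in PBDE males and in control males; filled points passed the threshold. C6 lies farthest to the right in both panels, at 2.18 in PBDE and 1.95 in control males.

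Other genes of the 2 cascades, taken from lists chosen with earlier results known, were counted beside the members. Of the other complement components 8 of 14 were read: 1 rose and 2 fell in male pups, 1 rose in female pups and 1 fell in adults. Over all genes 4.23% rose and 3.26% fell in male pups, 3.95% rose and 2.18% fell in female pups, and 1.86% rose and 2.04% fell in adults. C8g, the gamma chain of C8, rose by 0.26 in male pups (limma adjusted p = 0.00988) and by 0.36 in female pups (limma adjusted p = 7.29e-04), while C8a differed by 0.02 and -0.05. C8g averaged 13.16 ± 0.09 in male PBDE and 12.89 ± 0.12 in male control pups, and 13.25 ± 0.10 in female PBDE and 12.90 ± 0.12 in female control pups (SD, n = 5 each). Fcna, a ficolin that recognises microbial sugars, fell by 0.87 in male pups (change -0.87) and by 0.78 in adults (change -0.78). C1qa, a chain of the recognition molecule C1q that also stands in the macrophage list, fell by 0.71 in male pups (change -0.71). None of the 9 receptors and membrane regulators read of 12 passed with dose.

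Of the other coagulation and fibrinolysis genes 23 of 27 were read, beside the shares over all genes just given. In male pups 2 fell: Thbd, the thrombin receptor that activates protein C, and A2m. In female pups 1 fell (A2m), and in adults 0 passed. A2m changed by -2.65 in male pups (limma adjusted p = 6.17e-05) and by -2.83 in female pups (limma adjusted p = 2.7e-05). Replicate 4 of the female control pups was at 13.94 for A2m. In the vitamin K cycle, which serves protein S and the other vitamin K-dependent members, 4 of 5 genes were read: 2 rose in pups of each sex, where 4.23% of all genes rose in males and 3.95% in females, and 1 rose in adults, where 1.86% did. Nqo1, a quinone reductase, was in each of these counts. Vkorc1l1, a paralogue of the vitamin K epoxide reductase Vkorc1, rose by 0.56 in male pups (limma adjusted p = 5.03e-05) and by 0.55 in female pups (limma adjusted p = 6.13e-05). Its adult difference was -0.01, and the adult effect minus the male pup effect was -0.56 (limma adjusted p = 0.0121). Ggcx, the carboxylase itself, differed by 0.31 in male pups, 0.22 in female pups and 0.00 in adults, and Vkorc1 by -0.04, 0.23 and 0.22, with no value past the threshold. Between adult and pup controls 10 of the 23 other coagulation genes fell and 0 rose, where 18.6% of all genes fell and 10.9% rose. A2m fell most, by 4.28 (change -4.28, limma adjusted p = 5.73e-09). Tfpi, Serpine2 and Serpina5 fell by 0.97, 0.90 and 0.76 (changes -0.97, -0.90 and -0.76). In the same comparison 9 of 10 stellate cell and fibroblast markers and 5 of 8 endothelial markers fell, beside the same 18.6% of all genes.

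Of the transcription factors known to drive liver genes, 13 of 14 were read. In male pups 3 fell (Foxa3, Nr1h4 and Nr1i2), in female pups 1 rose (Cebpb) and 2 fell (Nr1i2 and Nr1i3), and in adults 2 rose (Nr1h4 and Nr5a2) and 1 fell (Onecut1). The shares over all genes were 4.23% higher and 3.26% lower in male pups, 3.95% and 2.18% in female pups and 1.86% and 2.04% in adults. Nr1i2, the pregnane X receptor, changed by -0.58 in male pups and -0.46 in female pups. Cebpb, a member of the C/EBP family, changed by 0.58 in female pups (limma adjusted p = 0.00266).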

How the data were processed

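Livers were profiled on 30 Affymetrix Rat Genome arrays, 5 in each of 6 groups taken from the labels. The authors deposited log2 intensities, which the submitters' processing notes credit to RMA; the software version is not given in the sources used here. Per the labels' protocols, 50 ng of total RNA went through 2 cycles of labelling from the 3' end. The number of arrays limits the precision.

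Of 31099 probe sets, 57 are array controls and served for quality values alone, and 31042 were tested; 0 columns of values went unused. The platform table tied 20826 to 1 gene, 436 to several and 9780 to none, and 20758 were matched to current gene records, with 0 symbols changed. The limma package (3.58.1, R 4.3.3) estimated 6 group means from the 30 arrays together, with eBayes, and p-values were adjusted by Benjamini-Hochberg across all tested probe sets. Following the series design, the false discovery rate was 0.01 for pups and 0.05 where adults enter. The 9 comparisons were 3 of dose, 2 of sex, 2 of age and 2 interactions. Percentages over all genes use 1 probe set for each of 14217 genes. Gapdh and Actb 3' minus 5' values were compared by exact permutation tests (2-sided, smallest possible p 0.00794).

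Array-name prefixes in the labels divide the arrays into 2 batches, and each group lies in 1 of them; what the prefix marks is not stated. Replicate numbers were not treated as pairs of livers in the main fit. Residuals of same-numbered arrays correlated at 0.00417 on average and those of other arrays at -9.06e-04. Of 75 same-number pairs 18 were above 0.1, and the share among other pairs was not computed. These averages cannot exclude that some livers were paired. On simulated data for the male pup comparison over 31042 probe sets, the fit recovered 57 of 100 probe sets changed by 0.5 log2 and 93 of 100 changed by 1. No other probe set was changed, and noise was drawn independently for each. In the data 7.48% of genes passed in male pups and members moved together, so these rates do not carry over directly. The members, lists, naming rule and tests were chosen with earlier results of these data known. Values per array were given for members that passed with dose, for the members with the largest rise and fall with age, and for some named after their values were seen (C6, C1r and C8b).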

Additional observations from a re-analysis of the deposited data

Results flagged for a closer look

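Single arrays that lay far from the other 4 of their group were found in 26 of 186 combinations of member and group. The measure was the gap to the nearest array set against the whole range. For 1 such combination chance gives about 1 in 20. The combinations share arrays and the members moved together within groups, so the 26 are not independent and were not tested against that rate. Replicate 4 of the female control pups accounted for 8 of them, all high: C1s at 13.63 (nearest other array 12.55), Cfi at 13.83 (13.46), C5 at 12.86 (11.75), C6 at 10.69 (9.43), C9 at 13.99 (13.12), Vtn at 14.25 (13.97), F9 at 13.53 (13.30) and Serpinc1 at 14.12 (13.98). Replicate 1 of the male PBDE pups was low for 4 members: C3 at 14.41 (14.69), Vtn at 13.54 (13.88), F2 at 13.61 (13.77) and Plg at 13.76 (14.02). Replicate 4 of the male control pups was low for 4 members: C3 at 14.37 (14.68), Cfi at 13.09 (13.44), F12 at 12.83 (12.98) and Serpinc1 at 13.83 (13.94).

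Replicate 4 of the female PBDE pups was low for F12 at 12.82 (13.01) and for Serpinf2 at 12.65 (12.80), and replicate 5 for Masp2 at 10.55 (10.81). In male PBDE pups Cfd was low in replicate 2 at 6.84 (7.06) and Serpinf2 in replicate 4 at 12.74 (12.91). Among adult PBDE rats Pros1 was low in replicate 2 at 11.48 (11.75), C8b was high in replicate 3 at 12.70 (12.14) and Serpind1 was low in replicate 5 at 12.89 (13.01). F10 was low in replicate 4 of the adult control rats at 12.08 (12.21), and C8b in replicate 3 of the female control pups at 10.72 (12.26).

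The dose effect on Pros1 differed between adult males and male pups, which differed in age and in length of dosing. The adult effect minus the male pup effect was -0.46 log2 (limma adjusted p = 0.0204). Among male pups 5 of 5 PBDE values lay above every control value, while the adult groups overlapped.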

How the results depend on the processing

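The rise of Pros1 in male and in female pups and the fall of Serpind1 in female pups held under all 22 alternatives run for each. Some of these could not lose a call. Each of these genes has 1 probe set, so the choice of the probe set of largest spread changed nothing. The mean of its probe sets left its values as they were. The other rate for pups, 0.05, is looser than 0.01. Dropping the 2 most deviant arrays removed no pup array, so it left these pup changes as they were. With the replicate block, which stands for shared numbers and not for shared animals, the counts were 1 in male pups, 5 in female pups, 0 in adults, 1 for age by dose, 14 for age in controls and 8 for age in PBDE animals, and no call on a member changed. In male pups the count was 2 with the compared groups alone, without shrinkage, with a filter on low values and with the mean of a gene's probe sets, and 5 at a false discovery rate of 0.05; leaving out 1 array gave 1 to 2. In female pups it was 2 with the compared groups alone, 2 with the Gapdh covariate and 10 at a false discovery rate of 0.05, and 2 to 5 with 1 array left out. In adults leaving out 1 array gave 0 to 1. For age by dose it was 0 at a false discovery rate of 0.01. It was also 0 when the 2 most deviant arrays, both from adult PBDE rats, were dropped. For age in controls it was 6 with the Gapdh covariate and 8 at 0.01, and for age in PBDE animals 3 and 5; with 1 array left out it was 11 to 14 and 6 to 9. Masp1 reversed with age in controls, at 0.12 for the mean of its probe sets and 0.25 for the probe set of largest spread, and in PBDE animals at 0.0635 for that probe set choice. The cause of these changes was not tested, except that a stricter rate calls fewer genes by construction. The recomputed values counted were those of members with dose, and of members called for age or age by dose. Of these, 2462 stayed on the same side of the threshold, 18 passed where they had not, and 79 no longer passed. The 2462 include sign changes of values that passed neither before nor after. In the age comparisons the alternatives also added 9 calls on members that had not passed. Values near 14 and above are limited by the top of the scale.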
